A study of Mus musculus with 8 samples.

Results

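The tumour necrosis factor (TNF) superfamily was followed in goblet cells sorted from mouse colon and small intestine. It comprises the ligands, their receptors and the Traf adaptors that carry the signal inside the cell. Members were the probes of the array whose gene symbol is that of a TNF superfamily ligand (Tnf, Lta, Ltb, Fasl, Cd40lg, Cd70 and the Tnfsf genes), of a receptor (Fas, Ltbr, Cd27, Cd40 and the Tnfrsf genes) or of Traf1 to Traf7. This rule used names and no measured value. It found 77 of 25697 probes, covering 46 of 16590 named genes, namely 16 ligands, 5 receptors with a death domain, 15 receptors without one, 4 receptors grouped here as decoys, and 6 Trafs. No probe carried the symbol Traf3, so that gene was not measured here.

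Goblet cells secrete the mucus that covers the gut epithelium, and they were compared in 4 colon samples and 4 small-intestinal samples of C57Bl/6 mice, 1 Illumina array each. In both groups the epithelium was freed with EDTA and cells were sorted that lacked CD45 and CD24, stained for cytokeratin 18 and bound the lectin UEA-I. No treatment or engineered allele is named for either group, while age, sex and the number of animals behind a sample are not stated in the labels. The p-values therefore rest on sample-to-sample spread that may be only technical, and 4 arrays per group limit the precision.

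Ligands of this family are trimers, on the cell surface or shed, that cluster their receptors. Receptors with a death domain can recruit the adaptors Tradd and Fadd and lead to cell death or to activation of NF-kB, while the others bind Trafs directly and act mainly through NF-kB and stress kinases. In the gut, the family is known for TNF-driven inflammation and epithelial cell death, for lymphotoxin signals that organise lymphoid tissue, and for the RANK signal that turns epithelial cells over lymphoid follicles into antigen-sampling M cells.

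Signal is given as log2 of the background-corrected, quantile-normalized intensity. A probe was above background on an array where its detection p-value, its rank among negative control probes, was below 0.05. It was tested where this held on at least 4 of the 8 arrays. Differences are colon minus small intestine, positive where colon is higher. Adjusted p-values come from limma and were corrected by Benjamini-Hochberg over all 13618 probes tested. Each gene is given by its brightest tested probe unless stated. Values of different probes are not on a common scale, so levels are compared between arrays and not between genes.

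The sorted samples carried goblet cell transcripts throughout. All 7 measured goblet cell markers (Tff3, Clca1, Spdef, Agr2, Zg16, Krt18 and Spink4) were above background on every array. Of these, Spdef (1.54, limma adjusted p = 2.14e-04) and Agr2 (1.33, adjusted p = 0.00107) were called higher in colon, and the summed signal of all 7 was 33234 to 40120 in colon and 31178 to 32048 in small intestine. Transcripts used as markers of other cell types were present too and differed between the segments. The summed normalized signal of 12 enterocyte markers was 4575 to 12873 on the colon arrays and 48991 to 65740 on the small-intestinal arrays. That of 6 Paneth cell markers was 1402 to 11738 in colon and 67655 to 79373 in small intestine, with colon replicates 1 (11476) and 4 (11738) far above replicates 2 (2297) and 3 (1402). That of 15 T and NK lymphocyte markers was 575 to 1423 in colon and 2787 to 5165 in small intestine, and 9 of its 11 tested genes were called higher in small intestine. Among these 9 was Ptprc, which encodes CD45, although the sort was for cells without CD45. It averaged 6.25 in colon and 7.24 in small intestine (limma adjusted p = 0.0196) and was above background on every array. In such bulk samples, fewer cells of a type, less RNA per cell and expression of these genes by the goblet cells themselves cannot be told apart.

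Much of the family was not detected on these arrays, and the members that differed were few. By any of their probes, 22 of the 46 genes (47.8%) were above background on no array, against 34.5% of all named genes. Another 7 were above background on some arrays, but no probe passed the filter. The remaining 17 genes were tested. Of these, Traf1, Tnfrsf21 and Tnfrsf11a were called higher in colon, and Tnfsf10, Tnfrsf1a and Cd40 higher in small intestine, while 11 did not pass. Over all 9080 genes tested, 13.1% were called in the direction of colon and 9.30% in that of small intestine (22.4% in either), so 3 of 17 members each way is not far from the background. By probe, 4 of the 31 tested were called for colon and 5 for small intestine, beside 11.6% and 9.83% of all tested probes. The median difference over the tested members was -0.07, beside 0.07 over all tested genes. Colon and small-intestinal values did not overlap for Traf1 and Tnfrsf21, which were higher in colon, and for Tnfsf10 and Tnfrsf1a, which were lower. Among all tested genes, 15.7% were without overlap and higher in colon, and 10.4% without overlap and lower there, 26.2% together. Tnfsf10 passed the filter through small-intestinal arrays only. Without colon replicates 1 and 4, which carried the most Paneth cell transcripts of their group, 2 members were called each way, Traf1 and Tnfrsf11a for colon and Tnfsf10 and Tnfrsf1a for small intestine.

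**Figure D1:**
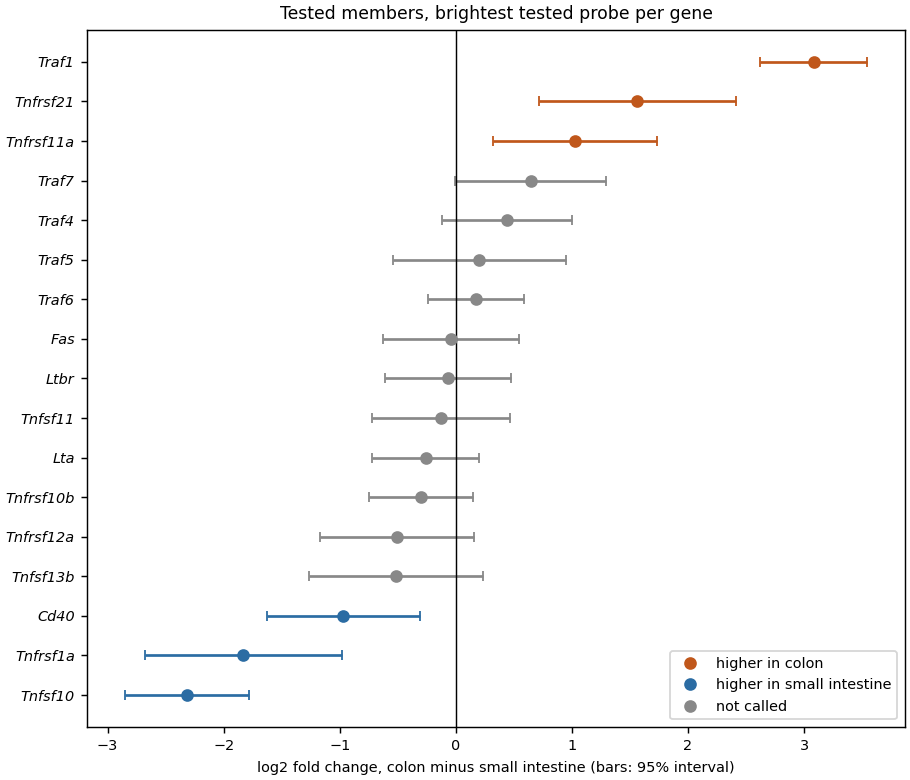
Difference in log2 normalized signal between colon and small intestine for the 17 tested members (points, brightest tested probe per gene) with the 95% interval of the limma fit (bars, 4 arrays per group). Traf1 lies farthest right at 3.08 and Tnfsf10 farthest left at -2.32, while the 11 grey members did not pass and lie between -0.52 and 0.64.

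**Figure D2:**
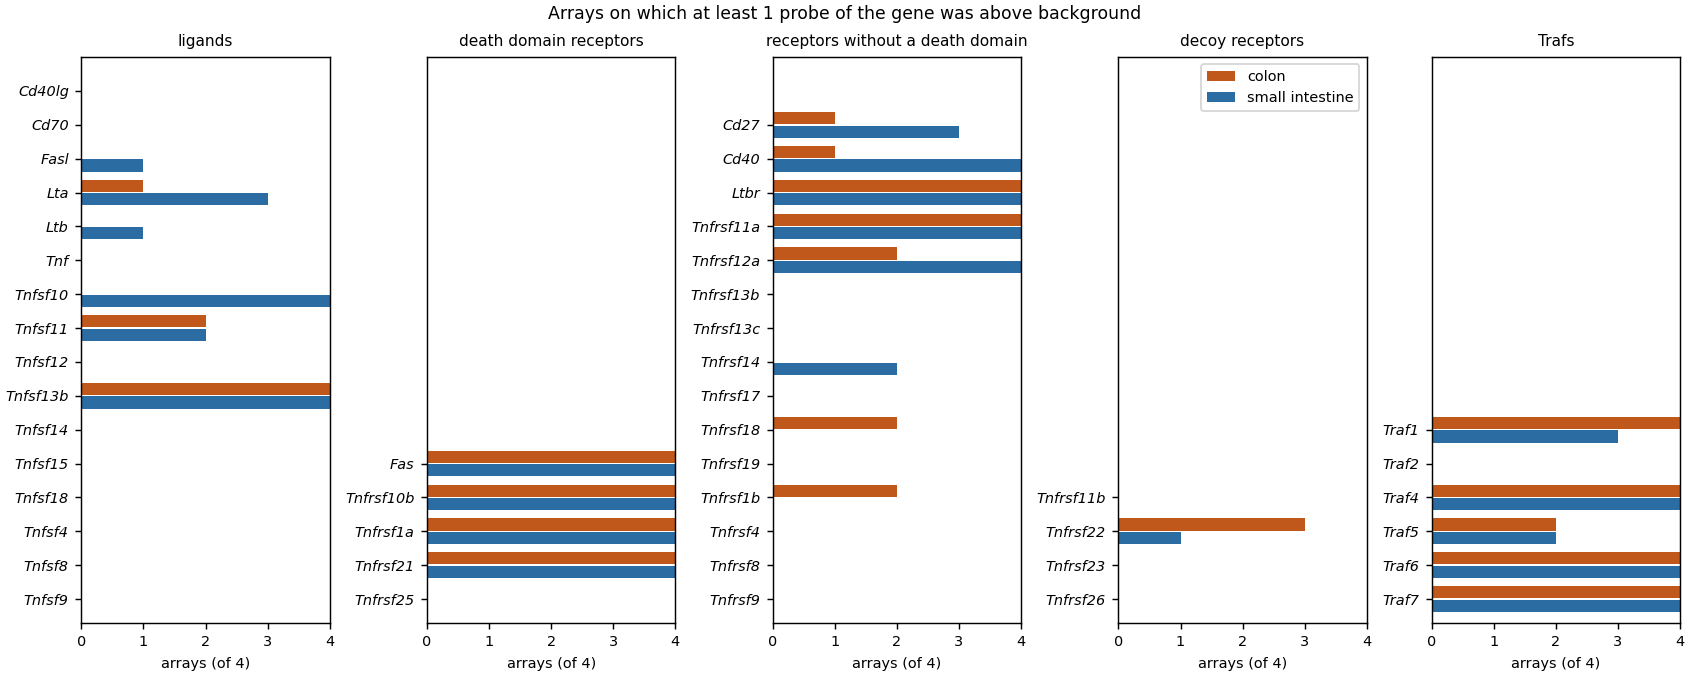
Number of the 4 colon and 4 small-intestinal arrays on which at least 1 probe of a gene was above background (horizontal axis), for all 46 members in 5 role groups. Of the 16 ligands only Tnfsf13b reached 4 arrays in both segments, while 4 of 5 death domain receptors and 3 of 6 Trafs did.

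The promoters of the called members are shown first, since these are the genes whose transcript level differed between the segments. Windows run from 250 bases before to 50 after the annotated start, from RefSeq with build GRCm38.p6, and the table held windows for 36 of the 46 members and for 5 of the 6 called ones. They are written 5′ to 3′ on the gene's strand. Capitals mark matches, on either strand, to a GC box (GGGCGG), an NF-kB motif (GGGA, any 2 bases, TTCC) or a STAT motif (TTCNNNGAA, its own reverse complement), and a match describes letters, not a bound site.
Traf1, chr2:34961723-34962022, minus strand: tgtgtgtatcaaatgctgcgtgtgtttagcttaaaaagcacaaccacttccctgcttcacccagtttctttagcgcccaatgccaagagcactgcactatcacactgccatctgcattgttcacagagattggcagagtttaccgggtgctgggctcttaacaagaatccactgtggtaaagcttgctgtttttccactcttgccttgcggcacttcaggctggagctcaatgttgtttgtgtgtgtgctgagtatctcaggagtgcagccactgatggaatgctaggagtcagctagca
Tnfrsf21, chr17:43016305-43016604, plus strand: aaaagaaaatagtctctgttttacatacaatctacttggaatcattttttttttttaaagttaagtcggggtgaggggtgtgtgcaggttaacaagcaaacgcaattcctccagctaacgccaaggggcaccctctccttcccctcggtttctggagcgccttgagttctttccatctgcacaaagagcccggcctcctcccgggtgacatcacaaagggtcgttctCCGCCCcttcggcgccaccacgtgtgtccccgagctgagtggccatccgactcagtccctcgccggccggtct
Tnfrsf11a, chr1:105780473-105780772, plus strand: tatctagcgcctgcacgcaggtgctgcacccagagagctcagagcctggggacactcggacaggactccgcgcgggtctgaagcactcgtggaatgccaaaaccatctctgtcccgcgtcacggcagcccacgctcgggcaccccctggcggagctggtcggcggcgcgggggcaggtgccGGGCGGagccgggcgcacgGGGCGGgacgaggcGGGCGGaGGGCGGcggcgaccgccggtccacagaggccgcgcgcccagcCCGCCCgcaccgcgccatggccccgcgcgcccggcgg
Tnfsf10, chr3:27316827-27317126, plus strand: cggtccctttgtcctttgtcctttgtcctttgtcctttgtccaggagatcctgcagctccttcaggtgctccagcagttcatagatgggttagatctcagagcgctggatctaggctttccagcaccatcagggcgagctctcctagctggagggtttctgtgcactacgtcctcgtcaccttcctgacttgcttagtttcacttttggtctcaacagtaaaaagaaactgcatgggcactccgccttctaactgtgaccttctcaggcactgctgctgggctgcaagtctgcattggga
Tnfrsf1a, chr6:125349473-125349772, plus strand: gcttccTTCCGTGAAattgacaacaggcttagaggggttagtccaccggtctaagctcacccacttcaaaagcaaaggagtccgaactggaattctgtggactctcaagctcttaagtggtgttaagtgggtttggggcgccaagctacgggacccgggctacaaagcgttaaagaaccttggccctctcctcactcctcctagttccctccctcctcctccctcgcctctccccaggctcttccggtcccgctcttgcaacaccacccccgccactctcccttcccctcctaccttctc

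Among these 5 windows, that of Tnfrsf11a held 5 GC boxes and was 76.7% G or C, against a median of 52.7% over all 32851 windows of the table. The Tnfrsf21 window held 1 GC box at 53.7% G or C, and the Tnfrsf1a window held 1 STAT motif at 57.0%. None of the 3 motifs was found in the windows of Traf1 (48.7% G or C) and Tnfsf10 (52.3%). GC boxes stood in 19 of the 40 windows of members, against 35.7% of all windows, STAT motifs in 9, against 8.30%, and the NF-kB motif in 1, that of Ltb, against 1.47%. Some genes have more than 1 window, and windows can overlap.

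Among the 16 ligands, Tnfsf10 alone was called. Tnfsf10 encodes TRAIL, which triggers cell death through death receptors. Its probe, ILMN_2436146, read 4.57, 4.93, 4.83 and 4.76 on colon replicates 1 to 4, against 7.37, 6.39, 7.36 and 7.24 on small-intestinal replicates 1 to 4. Every small-intestinal array was thus above background, no colon array was, and the groups did not overlap. The fitted difference was -2.32 (SE 0.24, adjusted p = 4.95e-05). Since colon gives only a limit, the small-intestinal level of TRAIL transcript was at least 3.03-fold higher under the main processing. That bound depends on the background correction and its offset. The fitted difference was -0.87 with no background correction and -1.48 with an offset of 50, and the call held under all 19 alternatives in which the probe was tested. Small-intestinal replicate 2, lowest for Tnfsf10, had the lowest lymphocyte marker sum of that segment (2787, against 4698, 5078 and 5165 on replicates 1, 3 and 4). It was also lowest there for enterocyte (48991), B and plasma cell (437), myeloid (639), stromal and endothelial (838) and goblet cell (31178) markers. Paneth cell, colonocyte, tuft, enteroendocrine and stem cell sums were not lowest on that array. Lymphocytes can express TRAIL. The sort was for cells without CD45, yet its transcript Ptprc was above background on every array, as given above. The part of any of these cell types in the Tnfsf10 result was not tested.

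The ligand for B cell survival, BAFF, encoded by Tnfsf13b, was detected in both segments. It averaged 6.00 ± 0.73 in colon and 6.51 ± 0.35 in small intestine (SD, n = 4 each), a difference of -0.52 with a 95% interval from -1.27 to 0.23 (limma, adjusted p = 0.320). A further Tnfsf13b probe, above background on all 8 arrays, gave -0.57 (SE 0.20, adjusted p = 0.0739). RANKL, encoded by Tnfsf11, stood near the floor at 4.72, 5.42, 5.19 and 5.72 in colon and 5.93, 5.37, 4.95 and 5.30 in small intestine, above background on 2 arrays of each group. The groups overlapped, and the difference was -0.13 (95% interval -0.73 to 0.47). The lymphotoxin gene Lta was also near the floor, at 5.25 ± 0.28 in colon and 5.51 ± 0.24 in small intestine (SD, n = 4 each), with a difference of -0.26 (95% interval -0.72 to 0.20).

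The other 12 ligands were not tested. Tnf itself, the family's founding cytokine, read 4.45 to 4.81 over the 8 arrays and was above background on none of them. The same held for Cd40lg, Cd70, Tnfsf4 (OX40 ligand), Tnfsf8 (CD30 ligand), Tnfsf9 (4-1BB ligand), Tnfsf12 (TWEAK), Tnfsf14 (LIGHT, by 3 probes), Tnfsf15 (TL1A) and Tnfsf18 (GITR ligand). Their probes ranged from 4.36 to 5.34. Fas ligand (Fasl) and lymphotoxin beta (Ltb) were above background on small-intestinal replicate 1 alone, at 5.74 and 5.77. A transcript below background on these arrays was not detectable, which does not show that it was absent.

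Of the 5 receptors with a death domain, 4 were above background on every array, and 2 of these were called, in opposite directions. Tnfrsf1a encodes TNFR1, the main receptor for TNF on most cells. Its brightest probe, ILMN_1241228, stood at 7.83, 8.24, 6.63 and 8.09 on colon replicates 1 to 4, against 9.04, 9.06, 10.26 and 9.76 on small-intestinal replicates 1 to 4. Every colon array lay below every small-intestinal array, with colon replicate 3 lowest and small-intestinal replicate 3 highest. Tnfrsf1a was lower in colon by a log2 difference of -1.83 (SE 0.39, adjusted p = 0.00585), which is 3.56-fold. The other 2 probes of the gene gave -1.85 and -1.71 (adjusted p = 0.00385 and 0.00379), with no overlap of groups for either. They read the same transcript on the same arrays and are not independent measurements. The call held under all 20 alternatives, with differences from -2.10 to -1.32. On colon replicates 1 to 4, Paneth cell marker sums were 11476, 2297, 1402 and 11738. Enterocyte marker sums on those arrays were 6071, 4575, 4578 and 12873. On small-intestinal replicates 1 to 4, Paneth cell sums were 79373, 71593, 69001 and 67655. Enterocyte sums there were 49636, 48991, 65740 and 62413. Without colon replicates 1 and 4 the Tnfrsf1a difference was -2.10 (limma adjusted p = 0.0268). Whether the enterocyte, Paneth cell and lymphocyte transcripts that are higher in small intestine have a part in it was not tested.

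Tnfrsf21 encodes death receptor 6, known for roles in lymphocyte activation and neuronal death. Its brightest probe, ILMN_2901626, read 8.38, 9.12, 7.85 and 8.17 on colon replicates 1 to 4, against 5.73, 6.90, 7.12 and 7.52 on small-intestinal replicates 1 to 4. All colon values lay above all small-intestinal ones, and the small-intestinal arrays spread widely, with replicate 1 lowest. The colon level of Tnfrsf21 exceeded the small-intestinal one by 1.56 (SE 0.38, adjusted p = 0.0138), which is 2.96-fold. The dimmer probe gave 1.11 (SE 0.29, adjusted p = 0.0176), again with no overlap, and was above background on 4 colon arrays and 1 small-intestinal array. The call was lost with no scaling between arrays (1.27, adjusted p = 0.139), with the authors' processed values (1.63, adjusted p = 0.0765) and without colon replicates 1 and 4 (1.67, adjusted p = 0.0759). With no background correction the difference was 0.89. The summed signal of 9 colonocyte markers was 23485 to 26703 in colon and 3649 to 4688 in small intestine. That direction was set in advance by listing markers of colon epithelium. The part of colonocytes in the Tnfrsf21 result was not tested.

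Tnfrsf10b is the death receptor for TRAIL in mice. It was above background on all 8 arrays, at 10.43, 10.63, 10.29 and 10.57 in colon and 10.62, 10.44, 10.99 and 11.08 in small intestine. The groups overlapped, and the difference of -0.30 had a 95% interval from -0.75 to 0.15 (limma, adjusted p = 0.330). Its 3 other tested probes gave -0.79, -0.19 and -0.11, none of them called. Thus the ligand TRAIL was called between the segments and its receptor was not, while the difference between those 2 effects was not tested.

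Fas, the receptor that Fas ligand uses to trigger apoptosis, averaged 7.04 ± 0.31 in colon and 7.09 ± 0.48 in small intestine (SD, n = 4 each). Its difference of -0.04 had a 95% interval from -0.63 to 0.54. The other 2 tested Fas probes gave -0.56 and -0.58 (adjusted p = 0.172 and 0.191), so the probes of this gene do not give the same size of difference. Tnfrsf25, which encodes death receptor 3, the receptor for TL1A, was above background on no array by either of its 2 probes, at 4.47 to 4.97.

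**Figure D3:**
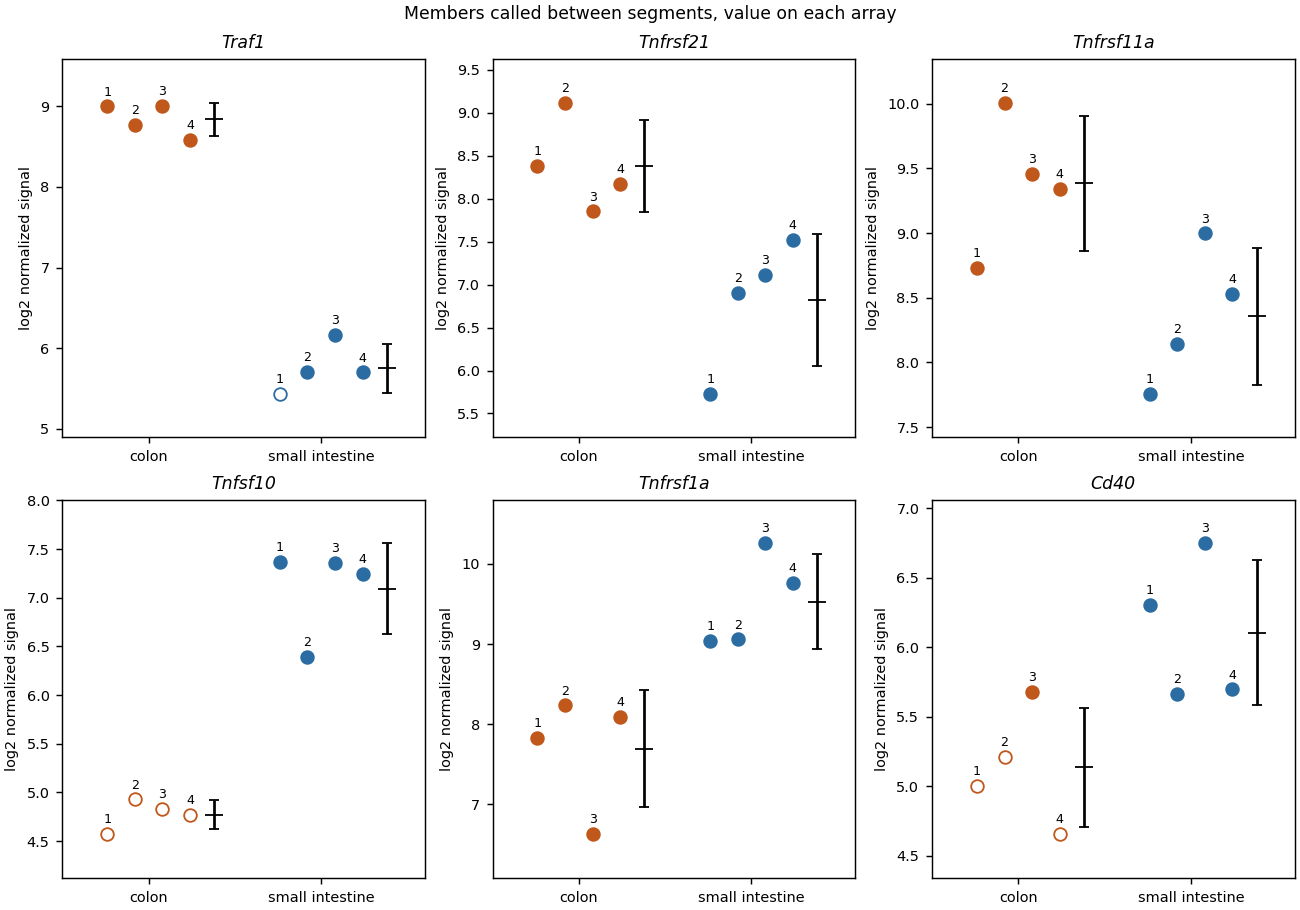
Log2 normalized signal of the 6 called members on each array (points, numbered by replicate), colon left and small intestine right, with mean and SD beside them (n = 4). Open points are not above background. Traf1, Tnfrsf21, Tnfsf10 and Tnfrsf1a show no overlap of the groups, while Tnfrsf11a and Cd40 do.

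Of the 15 receptors without a death domain, 4 were tested, and those called lie close to the threshold. Tnfrsf11a encodes RANK, the receptor through which RANKL drives M cell differentiation in the gut and osteoclast formation in bone. Probe ILMN_2482600 read 8.73, 10.01, 9.46 and 9.34 on colon replicates 1 to 4, against 7.76, 8.14, 9.00 and 8.53 on small-intestinal replicates 1 to 4. It was above background on every array, and the groups overlapped because colon replicate 1 lay below small-intestinal replicate 3. For RANK transcript the difference was 1.03, higher in colon (SE 0.32, adjusted p = 0.0430), which is 2.04-fold. It fell short of the threshold under 10 of 20 alternatives, among them no scaling between arrays (0.83, adjusted p = 0.253). It was also lost without colon replicate 2 (adjusted p = 0.103), 3 (0.0850) or 4 (0.0832), and on omitting small-intestinal replicate 1 (0.0755), 2 (0.104) or 4 (0.0751). RANKL, given above, stood near the floor in both segments.

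Cd40 encodes the receptor for CD40 ligand on B cells, dendritic cells and macrophages. Its tested probe, ILMN_2502136, read 5.00, 5.21, 5.68 and 4.65 in colon and 6.31, 5.67, 6.75 and 5.70 in small intestine. It was above background on colon replicate 3 alone and on every small-intestinal array. Colon replicate 3 overlapped small-intestinal replicate 2. The difference was -0.97 (SE 0.30, adjusted p = 0.0399), measured near the floor. The call was lost under 9 of the 18 alternatives in which the gene was tested, with adjusted p from 0.0130 to 0.297 over them. Without colon replicate 1, 2 or 4 adjusted p was 0.0934, 0.0670 and 0.111, and without small-intestinal replicate 1 or 3 it was 0.0634 and 0.114. The fitted difference was -0.32 with no background correction. The other 3 Cd40 probes were not tested: 2 were above background on no array and 1 on colon replicate 3 only. Near the floor, the first 2 averaged 4.93 and 5.12 in colon, against 4.92 and 5.06 in small intestine. The third averaged 5.38 and 5.17, so none of the 3 was higher in small intestine. Of 8 measured B and plasma cell markers, 5 (Cd79a, Ms4a1, Mzb1, Blk and Cd22) were above background on no array. Fcer2a, the only one tested, was above background on every array and not called (-0.55, limma adjusted p = 0.145). The summed signal of all 8 was 405 to 495 in colon and 437 to 673 in small intestine. For 9 measured myeloid markers it was 374 to 520 in colon and 639 to 942 in small intestine, with Adgre1, C1qa and C1qb above background on no array. All 3 tested myeloid markers were called. Lyz2 (-2.44, limma adjusted p = 0.00203) and Tyrobp (-2.25, adjusted p = 0.00281) were higher in small intestine. They averaged 8.36 and 7.82 there, while no other myeloid marker averaged above 5.88. The myeloid sum in small intestine thus rests mainly on Lyz2 and Tyrobp and is no count of myeloid cells. Cd14 (1.76, adjusted p = 1.98e-04) was higher in colon. The sort was for cells without CD45, yet Ptprc was above background on every array, as given above. The part of B, plasma and myeloid cells in the Cd40 result was not tested.

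Ltbr, the lymphotoxin beta receptor, was above background on all arrays and averaged 7.45 ± 0.42 in colon and 7.52 ± 0.28 in small intestine (SD, n = 4 each). The difference was -0.07, with a 95% interval from -0.61 to 0.48. Tnfrsf12a encodes Fn14, the receptor for TWEAK. It read 4.70, 5.53, 5.27 and 6.30 in colon and 5.76, 5.96, 6.14 and 5.97 in small intestine, above background on 2 and 4 arrays. The colon values spread around the small-intestinal ones, and the difference of -0.51 had a 95% interval from -1.17 to 0.16.

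The other 11 receptors of this class were not tested, and 7 of them were above background on no array by any probe. These were Tnfrsf4 (OX40), Tnfrsf8 (CD30), Tnfrsf9 (4-1BB), Tnfrsf19 (TROY) and the B-lineage receptors Tnfrsf13b (TACI), Tnfrsf13c (BAFF receptor) and Tnfrsf17 (BCMA). BAFF was thus detected in samples in which none of its 3 receptors was. Receptors known as costimulators of T cells were dim where detected. Cd27 was above background on 1 colon array and 3 small-intestinal arrays by at least 1 of its 3 probes, with values of at most 5.77. Tnfrsf14 (HVEM) read 4.98, 4.71, 4.79 and 4.63 in colon and 5.33, 5.30, 5.72 and 5.07 in small intestine, above background on 2 small-intestinal arrays. With no filter on dim probes it was called (-0.58, limma adjusted p = 0.0442), close to the floor.

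Tnfrsf18, which encodes GITR, a costimulatory receptor of T cells, was seen in colon only on some arrays. The brighter of its 2 probes read 4.72, 4.94, 5.93 and 5.92 on colon replicates 1 to 4, against 4.75, 4.84, 4.68 and 4.78 on small-intestinal replicates 1 to 4. The other read 5.06, 4.77, 5.63 and 5.54 in colon and 4.76, 4.91, 4.88 and 5.01 in small intestine. By both probes, colon replicates 3 and 4 were above background and no other array was. With no filter, the difference of 0.61 did not pass (limma, adjusted p = 0.252). Tnfrsf1b, which encodes TNFR2, the TNF receptor without a death domain, was above background on colon replicates 2 (5.82) and 4 (5.60) by 1 of its 2 probes, and on no small-intestinal array.

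No decoy receptor was tested. Tnfrsf11b encodes osteoprotegerin, the secreted decoy for RANKL, and its probe read 4.64 to 5.48, above background on no array. Tnfrsf23, a mouse decoy receptor for TRAIL, and Tnfrsf26, grouped with it here, read at most 4.83. Tnfrsf22, the other mouse TRAIL decoy, had 3 probes. One read 6.98 on colon replicate 3, against 4.80 to 5.37 on the other colon arrays and 4.50 to 5.31 in small intestine. Another of its probes was above background on 2 colon arrays and 1 small-intestinal array, and the third on none.

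**Figure D4:**
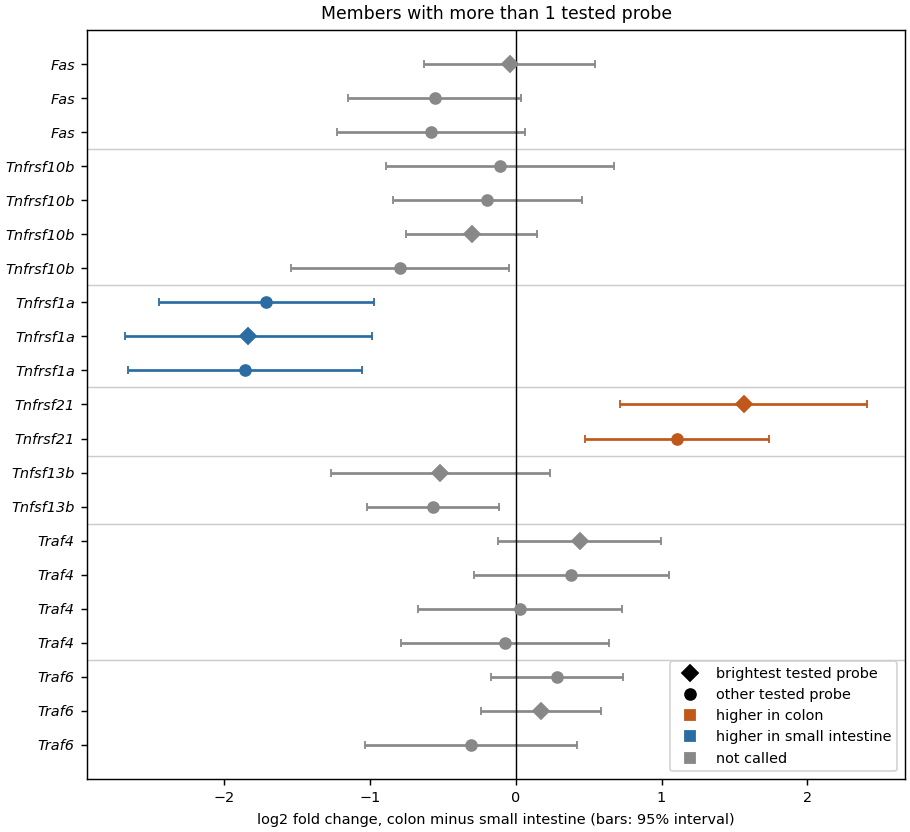
Difference in log2 normalized signal, colon minus small intestine, of each tested probe (points, with 95% interval) for the 7 members with more than 1 tested probe. The 3 Tnfrsf1a probes lie together between -1.85 and -1.71 and both Tnfrsf21 probes are above 1, while Traf4 and Traf6 have probes on either side of 0.

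Among the 6 Trafs, 5 were tested and Traf1 alone was called. Traf1 is an adaptor without the RING domain of its relatives that is induced by NF-kB and binds Traf2 and the cIAP ubiquitin ligases. Its probe, ILMN_1230586, stood at 9.00, 8.76, 9.01 and 8.58 on colon replicates 1 to 4, against 5.44, 5.70, 6.17 and 5.70 on small-intestinal replicates 1 to 4. The colon values lay close together and far above the small-intestinal ones, of which replicate 1 was not above background. Traf1 exceeded its small-intestinal level in colon by 3.08 (SE 0.21, adjusted p = 2.73e-06), which is 8.48-fold, and it ranked 93 among 9080 tested genes by rise in colon. The call held under all 19 alternatives in which the probe was tested. The difference was 2.98 to 3.22 on leaving out 1 array, 2.48 with an offset of 50 and 1.63 with no background correction. The 9 colonocyte markers, all called, were higher in colon as well (sums 23485 to 26703 in colon and 3649 to 4688 in small intestine). The sums of lymphocytes, which also express Traf1, were lower in colon, as given above. The part of either in the Traf1 result was not tested.

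The remaining tested Trafs did not pass. Traf6, the ubiquitin ligase that serves RANK, CD40 and the Toll-like receptors, averaged 9.60 ± 0.23 in colon and 9.43 ± 0.14 in small intestine (SD, n = 4 each), with a difference of 0.17 (95% interval -0.24 to 0.59). Its other 2 probes gave 0.28 and -0.31. Traf4, an adaptor known from epithelial and neural tissue, was at 7.95, 7.55, 7.98 and 7.49 in colon and 7.82, 7.56, 6.87 and 6.97 in small intestine, a difference of 0.44 (95% interval -0.12 to 1.00). Its 3 other probes gave 0.38, 0.03 and -0.07. Traf7, which carries WD40 repeats in place of the usual receptor-binding domain, differed by 0.64 (SE 0.29, adjusted p = 0.149). It was called without small-intestinal replicate 1 (0.91, adjusted p = 0.0165) and, like Traf4, with array weights. Traf5, which acts in CD40 and CD27 signalling, was above background on 2 arrays of each group and differed by 0.20 (95% interval -0.54 to 0.95). Traf2, the adaptor of TNFR1 and TNFR2, read 4.60 to 5.23 by its only probe and was above background on no array.

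Other genes of the pathway, taken from lists of adaptors, ubiquitin and feedback regulators, kinases, NF-kB proteins, NF-kB targets and superfamily members outside the rule (Ngfr and Relt tested, neither called), mostly did not differ detectably. Of 72 genes listed, 64 were on the table and 49 were tested. Of these, 2 were called higher in colon and 7 lower there, set against the 13.1% and 9.30% of all genes, and the median difference was -0.15. The calls that held most widely were 3. Rbck1, which encodes HOIL-1 of the linear ubiquitin ligase, read 4.86, 5.69, 4.61 and 4.89 in colon and 6.39, 6.76, 7.40 and 6.47 in small intestine (-1.74, SE 0.29, adjusted p = 0.00140). It was above background on 1 colon array. Tab3, a subunit of the TAK1 kinase complex, was lower in colon by -1.08 (SE 0.20, adjusted p = 0.00228), and Bcl2l1, the survival factor Bcl-xL, by -1.05 (SE 0.26, adjusted p = 0.0130). Neither overlapped between the groups. The calls held under all 19 alternatives for Rbck1, all 20 for Tab3 and 19 of 20 for Bcl2l1, which was lost without colon replicates 1 and 4 (adjusted p = 0.116).

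The other pathway calls were marginal. Lower in colon were Trafd1, a feedback inhibitor of innate immune signalling (-1.35, adjusted p = 0.0261, held under 12 of 20 alternatives), the kinase gene Tbk1 (-0.86, adjusted p = 0.0456, 9 of 20) and the NF-kB inhibitor gene Nfkbia (-0.75, adjusted p = 0.0498, 8 of 20). The chemokine gene Cxcl10 was above background on no colon array, so it passed the filter through small-intestinal arrays only. Under the main processing it exceeded its colon level in small intestine at least 1.24-fold (adjusted p = 0.0287, 7 of 18). Higher in colon were Mlkl, the executioner of necroptosis (0.89, adjusted p = 0.0364, 11 of 20), and Nfkb2, the subunit of the alternative NF-kB pathway (0.62, adjusted p = 0.0475, 5 of 20). Birc3, which encodes the Traf-bound ligase cIAP2, read 8.27, 8.54, 9.61 and 9.38 in colon and 8.87, 7.16, 7.31 and 7.53 in small intestine. Its difference of 1.23 did not pass (limma, adjusted p = 0.0553), and it passed under 6 of 20 alternatives, with adjusted p = 0.0420 when colon replicate 1 was omitted and 0.00506 when small-intestinal replicate 1 was. The adaptor Fadd (-0.20), the initiator caspase gene Casp8 (-0.08) and the NF-kB brake Tnfaip3, which encodes A20 (0.29), were above background on all arrays and did not pass. Single arrays moved these counts. The number higher in colon was 0 without colon replicate 3 or 4 or small-intestinal replicate 2, 3 or 4, was 1 without colon replicate 2, and was 5 without small-intestinal replicate 1. The number higher in small intestine was 4 without colon replicate 1 or 3 or small-intestinal replicate 3, and it was 3 on omitting replicate 4 of that segment. Without colon replicates 1 and 4 together, 1 pathway gene was called for colon, Xiap, and 2 for small intestine, Rbck1 and Tab3.

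**Figure D5:**
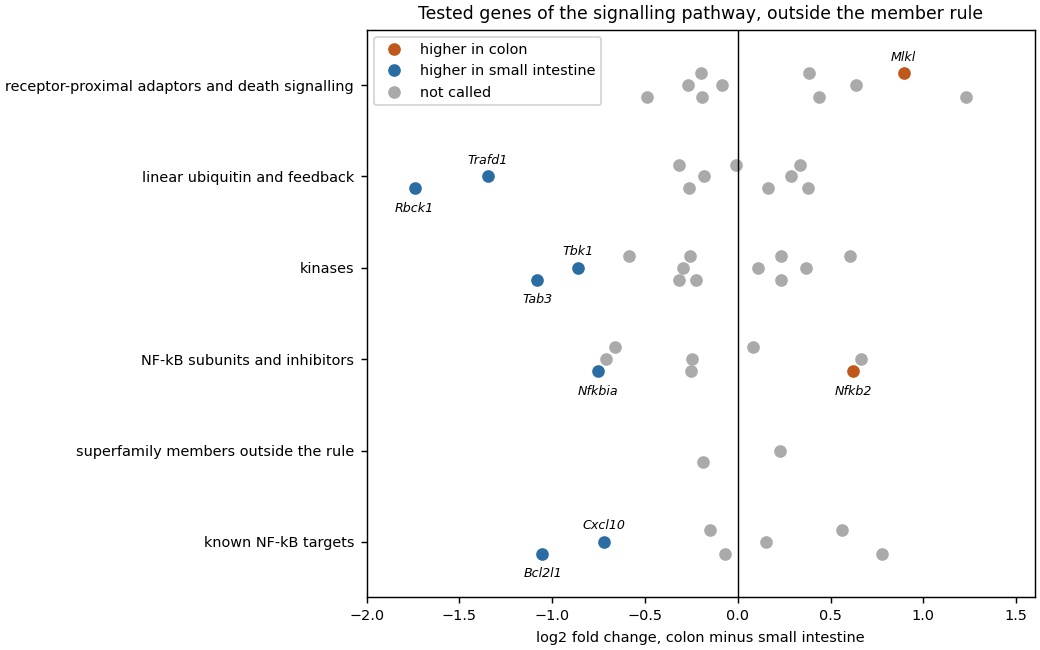
Difference in log2 normalized signal, colon minus small intestine (horizontal axis), of the 49 tested pathway genes outside the member rule, in 6 lists (rows, vertical offsets within a row carry no meaning). The 9 called genes are coloured and named, 7 left of 0 and 2 right of it, from Rbck1 at -1.74 to Mlkl at 0.89.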

How the data were processed

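Colon and small-intestinal goblet cell RNA was measured on Illumina arrays. The deposited signal table gives the intensity of each probe before background subtraction or scaling. Each deposited intensity has a detection p-value beside it, as the column headers name it. One corrupted cell, of no member, was restored from the line that links that array's processed values to its signals. The deposited processed intensity values, background-subtracted and scaled by the authors in a way not given in the sources used here, served as an alternative, floored at 16.

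Array means of the signal were 386 to 558, with 12447 to 13922 probes above background on an array. Neqc of limma 3.58.1 (R 4.3.3) applied normexp from the detection p-values with offset 16, quantile normalization and log2. Linear models with empirical Bayes variances were fitted over all 13618 tested probes. Figures were drawn with matplotlib 3.10.9, and tables were handled in pandas 2.3.3 and numpy 2.4.6 under Python 3.11.15. Symbols were updated through RefSeq for 23962 named probes by Entrez ID and 9 by accession, of 23978. For a probe that a whole group left below background, a bound is given, which holds for the main processing only. It sets the other group's mean against the dim group's mean of, on each array, whichever is higher, the probe's value or the lowest value above background. Summed marker signals add the unlogged normalized values of 1 probe per gene.

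Members, gene lists and alternatives were chosen with earlier results of these data known. All members are accounted for, with values on every array for called ones, and called pathway genes are named. Birc3, Fadd, Casp8 and Tnfaip3 were named after their values were seen. The same holds for the cell type markers Ptprc, Fcer2a, Lyz2, Tyrobp and Cd14.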

Additional observations from a re-analysis of the deposited data

Results flagged for a closer look

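In 34 groups of 4 values, those of the 17 tested members in both segments, 1 sample stood apart by Dixon's test at 95%. The Tnfsf10 value of small-intestinal replicate 2 was 6.39, against 7.24 to 7.37 on the other small-intestinal arrays. Chance flags about 1 in 20 such groups. Without that array, Tnfsf10 differed by -2.55 (limma, adjusted p = 2.22e-05).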

How the results depend on the processing

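Over 20 alternatives, the differences of the 17 tested members gave 329 values. Of these, 304 kept the side of the threshold and the direction of any call, 22 lost a call, 3 gained one and 0 reversed a called difference. Differences not called could change sign and still count as kept. The main sign was kept under 16 of 20 alternatives for Fas, 17 of 20 for Ltbr, 15 of 18 for Tnfsf11 and 17 of 18 for Traf5. Traf1, Tnfsf10 and Tnfrsf1a were called wherever they were tested. With 3 members called in each direction, the count higher in colon was 1 with no scaling between arrays, 1 with the deposited processed values and 5 with array weights, and the count higher in small intestine was 1 among probes above background on all 8 arrays, where Tnfsf10, Cd40 and Traf1 are not tested, and 5 with every tested probe counted. On leaving out 1 array it was 2 to 3 in each direction. Among all probes, colon was higher for 1580 and small intestine for 1339. These were 744 and 1051 with no scaling between arrays, which lowered the share of calls in colon to 41.4%, against 54.1%, and moved the median difference of all genes to -0.14, against 0.07. They were 2672 and 2397 with array weights, 943 and 805 without colon replicates 1 and 4, and 847 were higher in small intestine among probes above background on all 8 arrays. On leaving out 1 array they were 1176 to 2051 and 964 to 1803. The alternatives for the pathway lists were added after the data were seen. Their 2 and 7 calls were 0 and 3 with no scaling between arrays, 1 and 4 with no filter, 8 and 9 with array weights, 1 and 2 without colon replicates 1 and 4, and 0 to 5 and 3 to 8 on leaving out 1 array. The number higher in colon was 1 with no background correction and 1 with the deposited processed values. Deviations from the group means correlated at 0.0677, 0.247, -0.183 and 0.0453 between samples of the same number, for replicates 1 to 4. Samples of different numbers gave -0.563 to 0.363. These values cannot settle whether samples of 1 number came from the same animal, which the labels do not state. With the replicate number as a block, 3 and 3 members, 1410 and 1217 probes, and 1 and 5 pathway genes were called, and no member gained or lost its call. Except where a probe or array was left out, the cause was not tested. Low signal over background kept 29 members out of the main test. With no filter on dim probes all 46 were tested, and of those 29 Tnfrsf14 alone was called.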
